A study of Mus musculus with 18 samples.

Results

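Many skeletal muscle genes were higher at each of 5 doses of 211At than without irradiation in these mouse thyroid samples, and their signals did not climb with the dose. The members were 42 genes that skeletal muscle fibres use for their contractile filaments, their calcium handling and their energy supply. A probe counted for a member when the annotation of the array gave it that gene symbol, and for each gene the probe with the highest mean signal over all arrays was kept. That left 37 of the 42 genes, among 16593 genes with a named probe. Myh2, Neb, Cacna1s, Smpx and Xirp2 had no probe of that name and were not analysed here.

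The study asked how gene expression in the thyroid responds to a range of absorbed doses. The samples were thyroids of female BALB/c nude mice, taken 24 h after an intravenous injection of 211At, an alpha-particle emitter that accumulates in the thyroid. The groups were mice without 211At (0 Gy, injected with an empty syringe) and mice with absorbed thyroid doses of 0.05, 0.5, 1.4, 11.2 and 32.4 Gy. All groups carried the nude background, in which mice lack a thymus and mature T cells, and the animals were 6 months old. The thyroids of each group were pooled into 1 RNA, which was run on 3 Illumina MouseRef-8 arrays, so that each group had n = 3 arrays of 1 pool, every SD, SE and p-value covers the spread between arrays alone, and differences between animals or dissections cannot be told apart from those between doses.

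Across the 18 arrays the median raw signal was 86.3 to 115.3, and 9737 to 10995 of 25697 probes were detected (detection p-value under 0.01). The log2 signals of 2 arrays of one group correlated at 0.992 to 0.996, and those of arrays from different groups at 0.931 to 0.989. The defining markers of the labelled tissue, genes of the follicular cells that make thyroid hormone, were mostly not detected. Of 10 measured genes of that kind, Tg (thyroglobulin), Slc5a5 (the iodide transporter), Pax8, Nkx2-1, Foxe1, Duox2, Slc26a4 and Dio1 were detected on 0 of 18 arrays, Iyd on 1 and Tshr on 8. Of the genes on 2 other tissue lists, 4 of 7 of brown fat and 4 of 8 of salivary gland were detected on all 18 arrays, among them Ucp1, the uncoupling protein of brown fat, with a mean log2 signal of 13.72, and Prol1, a secreted salivary protein, with 14.16. The brown fat genes Dio2 and Zic1 were detected on 0 arrays and Ppara on 13, and the salivary genes Klk1b26 and Smgc on 15, Dcpp1 on 10 and Prpmp5 on 5.

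A skeletal muscle fibre shortens when thick filaments of myosin pull on thin filaments of actin inside sarcomeres, which are joined end to end at Z-discs. Calcium released from the sarcoplasmic reticulum through the ryanodine receptor starts the contraction, and the calcium pump Atp2a1 ends it. Creatine kinases, glycolytic enzymes and, in oxidative fibres, mitochondria and myoglobin restore the ATP that is spent. The mouse thyroid lies on the trachea beneath thin strap muscles of the neck. In a bulk sample, more muscle cells and more RNA per muscle cell cannot be told apart.

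Stretches of promoter are shown for the members that rose most at 32.4 Gy among those called at all 5 doses with a single RefSeq start, namely Atp2a1, Acta1, Tpm2 and Pgam2, and for Casq2, which was detected on no array. Each is the 150 bases before the start, 5′ to 3′ on the strand of the gene, in GRCm38.p6. Capitals mark any E-box (CANNTG, bound by the MyoD family), M-CAT element (CATTCC, bound by TEAD factors), MEF2 site or CArG box (bound by serum response factor), searched on both strands. Where CANNTG reads CAGCTG the same letters are also the form of the E-box common in muscle genes.
Atp2a1, chr7:126463074-126463223, minus strand: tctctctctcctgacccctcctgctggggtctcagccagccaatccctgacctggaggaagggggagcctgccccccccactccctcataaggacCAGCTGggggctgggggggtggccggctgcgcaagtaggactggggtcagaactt
Acta1, chr8:123894776-123894925, minus strand: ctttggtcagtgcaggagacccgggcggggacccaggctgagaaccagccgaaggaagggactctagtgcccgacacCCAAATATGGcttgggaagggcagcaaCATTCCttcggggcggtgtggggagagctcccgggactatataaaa
Tpm2, chr4:43523555-43523704, minus strand: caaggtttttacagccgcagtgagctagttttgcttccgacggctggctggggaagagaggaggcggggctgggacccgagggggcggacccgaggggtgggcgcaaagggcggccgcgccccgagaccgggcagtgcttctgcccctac
Pgam2, chr11:5803797-5803946, minus strand: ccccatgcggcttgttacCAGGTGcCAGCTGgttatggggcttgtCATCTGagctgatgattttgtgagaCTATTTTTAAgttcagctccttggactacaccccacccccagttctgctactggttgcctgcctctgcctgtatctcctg
Casq2, chr3:102086265-102086414, plus strand: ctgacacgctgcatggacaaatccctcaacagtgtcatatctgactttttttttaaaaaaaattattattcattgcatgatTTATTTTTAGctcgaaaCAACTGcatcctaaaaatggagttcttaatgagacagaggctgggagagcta
Pgam2 held 3 E-boxes, 1 of them CAGCTG, and 1 MEF2 site, whereas Acta1 held a CArG box and an M-CAT element, Atp2a1 held 1 E-box, and Tpm2 held none of these letters. Casq2 held an E-box and a MEF2 site.

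RefSeq windows of 300 bases, 250 before to 50 after the start, were on hand for 26 of the 37 measured members, 31 windows in all. CAGCTG occurred in 58.1% of the members' windows and in 16.3% of all 32851 windows. MEF2 sites occurred in 25.8% of the members' windows and in 3.19% of all windows, CArG boxes in 16.1% and 1.63%, CATTCC in 29% and 14.7%, and CANNTG in 83.9% and 72.3%. The 11 windows of members called at all 5 doses held CAGCTG in 63.6%, MEF2 sites in 36.4% and CArG boxes in 18.2%. These shares describe letters in the promoters of genes named for muscle and carry no test.

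Signals are given after joint quantile normalization of the 18 arrays, and a gene was called, written here as rose or fell, when its ratio was at least 1.5-fold with an adjusted p under 0.01 in limma, with Benjamini-Hochberg adjustment over all 25697 probes. Of the 37 members, 23 rose at 0.05 Gy, where 2.62% of all probes rose and 2.18% fell. At 0.5 Gy 23 members rose, with 3.69% of all probes higher and 3.9% lower. At 1.4 Gy 11 members rose, with 1.23% of all probes higher and 1.2% lower, at 11.2 Gy 20, with 1.84% higher and 0.957% lower, and at 32.4 Gy 26, with 1.31% higher and 0.786% lower. No member fell at any dose in limma, and at an unadjusted p under 0.05 the members that differed from 0 Gy in either direction were 32, 29, 21, 27 and 30 of 37 in the order of the doses. The share of all probes at that unadjusted level is not given, here or for the gene lists below. It includes at least the 4101, 5061, 2539, 3016 and 2103 of 25697 probes with an adjusted p under 0.01 in limma at any fold. With 50 added to each signal before the logarithm, 6 members rose at 1.4 Gy. The median log2 ratio of the 37 members was 1.08 at 0.05 Gy, 0.88 at 0.5 Gy, then 0.19 at 1.4 Gy, 0.64 at 11.2 Gy and 1.35 at 32.4 Gy, where the median of all probes lay between -0.01 and 0.00. The F test over the 5 irradiated groups, with at least 1.5-fold between the highest and the lowest, called 26 members, against 11.5% of all probes.

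**Figure D1:**
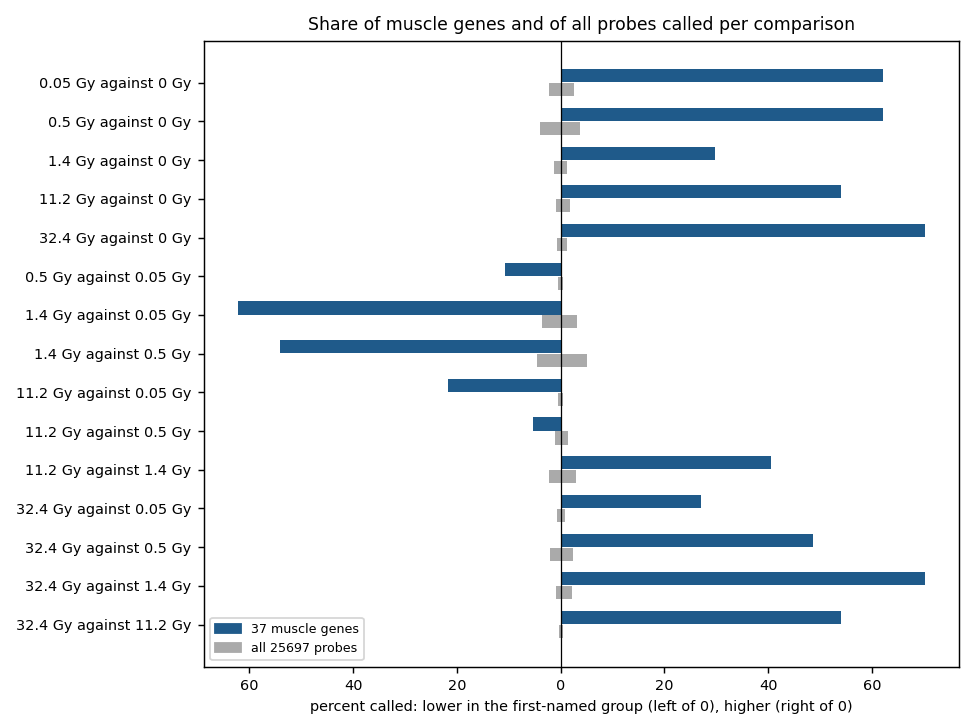
Percent of the 37 muscle genes (blue) and of all 25697 probes (grey) called in each of 15 comparisons, with lower calls in the first-named group drawn left of 0 and higher calls right of 0. Muscle genes rose in all 5 comparisons with 0 Gy, with 11 of 37 called at 1.4 Gy and 26 of 37 at 32.4 Gy, and each comparison between doses had calls in 1 direction only.

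In all, 11 members rose at all 5 doses, namely Acta1, Atp2a1, Ckm, Cox6a2, Mybpc2, Myh4, Pgam2, Pvalb, Rpl3l, Tcap and Tpm2. Actn3, Ampd1, Ckmt2, Eno3, Mb, Myh1, Myoz1, Ryr1 and Ttn rose at every dose but 1.4 Gy. Actn2, Mybpc1 and Myom1 rose at 0.05, 0.5 and 32.4 Gy, and Des, Myot and Sln at 32.4 Gy. The other 11 members were not called against 0 Gy at any dose. The share of all probes that rose at all 5 doses is not given, and all 5 comparisons use the same 0 Gy pool. Of the 37 members, 16 were detected on all 3 arrays at 0 Gy, 26 at 0.05 Gy, 25 at 0.5 Gy, then 24 at 1.4 Gy, 25 at 11.2 Gy and 30 at 32.4 Gy. At least 1 group had all 3 arrays detected for 30 members, and the other 7 were Apobec2, Cacng1, Casq1, Casq2, Jph1, Myom2 and Trim63. The summed signal of the 37 members was 5565 to 5786 at 0 Gy, 22481 to 24589 at 0.05 Gy, 19283 to 20542 at 0.5 Gy, 9284 to 9439 at 1.4 Gy, 16602 to 17000 at 11.2 Gy and 34662 to 35649 at 32.4 Gy, so that no array of one dose group reached the range of another. The sum is weighted to the brightest genes, since Acta1, Pvalb and Atp2a1 had mean signals of 7659, 5645 and 4328 at 32.4 Gy. It also holds the background of undetected members, which were 15 at 0 Gy.

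**Figure D2:**
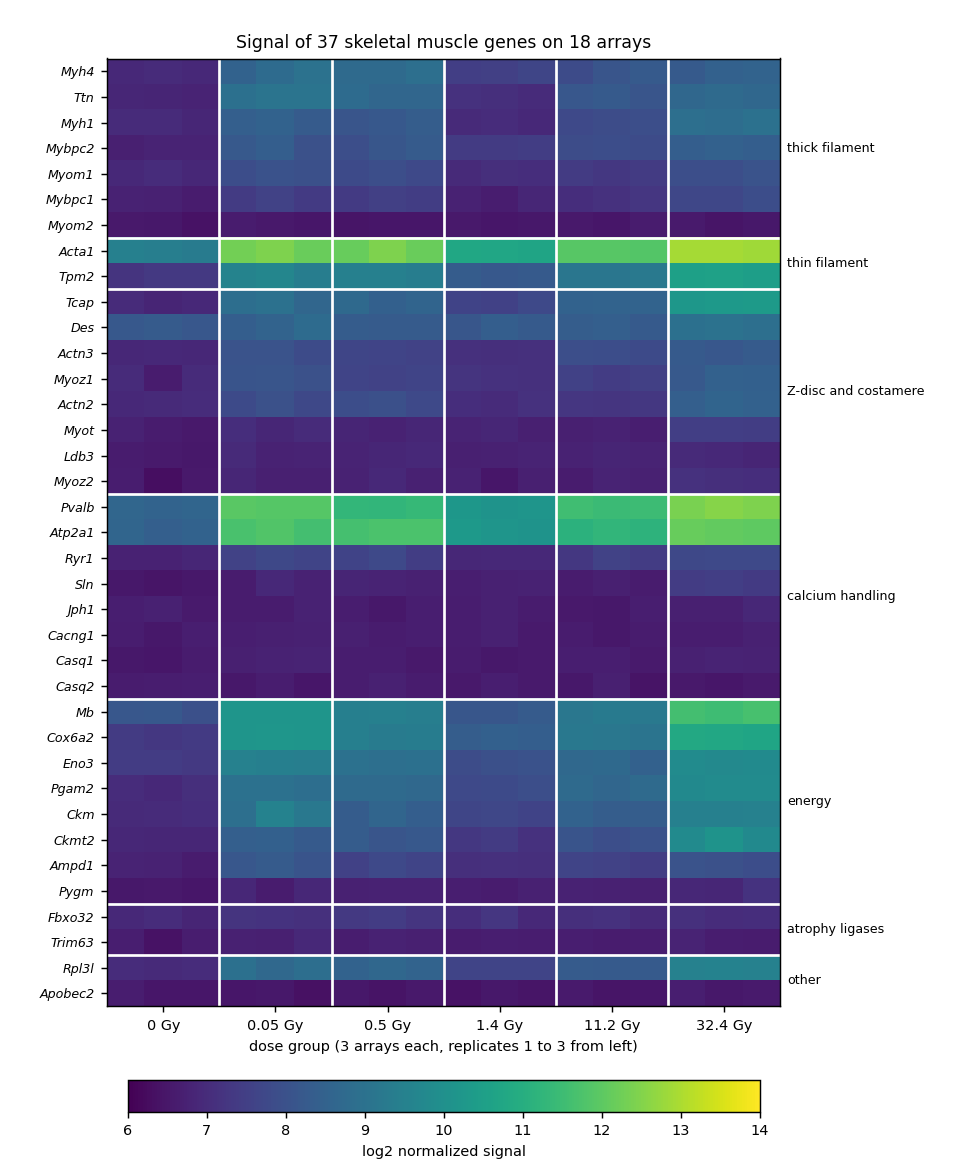
Log2 normalized signal of the 37 muscle genes (rows, by role) on the 18 arrays (columns, 3 per dose group, low dose to high). The columns at 0 Gy are the darkest for most genes, those at 1.4 Gy come next, and Acta1, Pvalb and Atp2a1 reach mean log2 signals of 12.90, 12.46 and 12.08 at 32.4 Gy.

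Both measured genes of the thin filament rose at all 5 doses. Beside this and the counts by role below, 2.62% of all probes rose at 0.05 Gy, 3.69% at 0.5 Gy and 1.23% at 1.4 Gy. At 11.2 and 32.4 Gy 1.84% and 1.31% of all probes rose. Acta1, the actin of skeletal muscle thin filaments, had normalized signals of 718.5, 684 and 644 at 0 Gy, 5080.4, 5607 and 4574.5 at 0.05 Gy, 4553, 5629.5 and 4583.5 at 0.5 Gy, 1732.5, 1712 and 1641 at 1.4 Gy, 3889.7, 3877 and 3721 at 11.2 Gy and 7809, 7809 and 7369 at 32.4 Gy. The arrays at 0.05 and 0.5 Gy overlapped, and all other groups were apart from each other. Its log2 ratio to 0 Gy was 2.90 ± 0.08 (SE) at 0.05 Gy, 2.85 ± 0.08 at 0.5 Gy, then 1.31 ± 0.08 at 1.4 Gy, 2.49 ± 0.08 at 11.2 Gy and 3.49 ± 0.08 at 32.4 Gy, an 11.2-fold signal at the highest dose, with an adjusted p in limma of 7.88e-14 at 1.4 Gy and less at the other doses.

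Tpm2, a tropomyosin that lies along the thin filament, had signals of 146, 160.0 and 161 at 0 Gy, 763, 814 and 671 at 0.05 Gy, 712, 717 and 665 at 0.5 Gy, 323, 295 and 308 at 1.4 Gy, 567, 569 and 606 at 11.2 Gy and 1511, 1529 and 1441.5 at 32.4 Gy. Its log2 ratio to 0 Gy ran between 0.99 ± 0.07 at 1.4 Gy and 3.26 ± 0.07 at 32.4 Gy. A second Tpm2 probe, also detected on all 18 arrays, gave 0.37 ± 0.06 at 0.05 Gy, 0.57 ± 0.06 at 0.5 Gy, then -0.18 ± 0.06 at 1.4 Gy, 0.33 ± 0.06 at 11.2 Gy and 0.56 ± 0.06 at 32.4 Gy, none of them called, so the Tpm2 calls rest on 1 probe.

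In the thick filament, 6 of 7 measured members rose at 0.05, 0.5 and 32.4 Gy, 2 at 1.4 Gy and 4 at 11.2 Gy. Myh4, the myosin heavy chain of the fastest fibres (type IIb), had signals of 121, 127 and 120.4 at 0 Gy, 369, 441 and 513.5 at 0.05 Gy, 431, 434 and 481 at 0.5 Gy, 179, 181 and 205 at 1.4 Gy, 225, 278 and 306.5 at 11.2 Gy and 309, 362 and 376 at 32.4 Gy. Its highest values were at 0.05 and 0.5 Gy, and the arrays at 32.4 Gy overlapped those at 0.05 Gy. The log2 ratio of Myh4 to 0 Gy was 1.83 ± 0.10 at 0.05 Gy, 1.87 ± 0.10 at 0.5 Gy, 0.61 ± 0.10 at 1.4 Gy (adjusted p in limma = 4.43e-05), 1.12 ± 0.10 at 11.2 Gy and 1.5 ± 0.10 at 32.4 Gy. Without replicate 3 of 1.4 Gy its ratio there was 0.55 and it was not called.

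Ttn, the giant protein that spans the sarcomere and keeps the thick filament centred, had signals of 115, 113 and 112 at 0 Gy, 500.0, 546 and 546 at 0.05 Gy, 445, 401 and 399 at 0.5 Gy, 142, 134 and 126 at 1.4 Gy, 285, 305 and 275 at 11.2 Gy and 411.5, 433 and 409 at 32.4 Gy. It was highest at 0.05 Gy, where its log2 ratio to 0 Gy was 2.22 ± 0.06, and it stood at 1.88 ± 0.06 at 32.4 Gy. At 1.4 Gy its ratio was 0.24 ± 0.06, which was below the fold that was called.

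Myh1, the heavy chain of type IIx fibres, had signals of 126, 126 and 116 at 0 Gy, 346.5, 369 and 314 at 0.05 Gy, 278, 292.5 and 330.0 at 0.5 Gy, 124, 130.5 and 122.5 at 1.4 Gy, 216, 233 and 245 at 11.2 Gy and 485, 465 and 508 at 32.4 Gy. The arrays at 1.4 Gy overlapped those at 0 Gy, with a log2 ratio of 0.04 ± 0.07 (adjusted p in limma = 0.852), and those at 32.4 Gy were the highest, with a ratio of 1.99 ± 0.07. A second Myh1 probe, detected on 2 arrays, was not called.

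Mybpc2, the fast form of myosin-binding protein C, rose at all 5 doses, by log2 ratios between 0.64 ± 0.08 and 1.65 ± 0.08. Myom1, which ties thick filaments together at the M-line, had ratios of 1.00 ± 0.06 at 0.05 Gy and 1.01 ± 0.06 at 32.4 Gy. A second Myom1 probe, detected on all 3 arrays at these doses and on none at 0 Gy, was at least 1.14-fold higher at each and was called at no dose. Mybpc1, the slow form of myosin-binding protein C, was detected on no array at 0 Gy and has only a bound there. Against the dimmest detected signal of those arrays, with group means of normalized log2 values, Mybpc1 was at least 1.52-fold higher at 0.05 and 0.5 Gy and 1.90-fold or more at 32.4 Gy (adjusted p in limma = 5.81e-09, 3.44e-09 and 7.02e-12). It was not called at 0.05 or 0.5 Gy in the deposited values or with 50 added. Myom2, a second M-line protein, was detected on 0 of 18 arrays, with signals between 84.2 and 98.2.

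At the Z-disc and the costamere, where the sarcomere meets the cell membrane, 4 of 8 measured members rose at 0.05 and 0.5 Gy, but 1 at 1.4 Gy, 3 at 11.2 Gy and 6 at 32.4 Gy. Tcap, which caps titin at the Z-disc, had signals of 126, 112.5 and 120.1 at 0 Gy, 473, 506 and 399 at 0.05 Gy, 421, 352 and 383 at 0.5 Gy, 195, 186 and 216 at 1.4 Gy, 365, 373 and 377 at 11.2 Gy and 1209, 1276 and 1324 at 32.4 Gy. The arrays at 32.4 Gy were more than 2-fold above every other array, and those at 0.05, 0.5 and 11.2 Gy overlapped in part. Against 0 Gy its log2 ratio was 1.94 ± 0.08 at 0.05 Gy, 0.73 ± 0.08 at 1.4 Gy, then 1.64 ± 0.08 at 11.2 Gy and 3.41 ± 0.08 at 32.4 Gy.

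Des, the intermediate filament desmin that links neighbouring Z-discs and is also made by smooth muscle, had signals of 296, 311 and 288 at 0 Gy, 338, 376 and 441 at 0.05 Gy, 324, 314 and 311 at 0.5 Gy, 281, 338 and 309 at 1.4 Gy, 328, 342 and 306 at 11.2 Gy and 494, 515 and 482 at 32.4 Gy. It stood apart at 32.4 Gy alone, with a log2 ratio of 0.74 ± 0.08 (adjusted p in limma = 2.99e-08). The ratios at the other doses were between 0.05 ± 0.08 at 1.4 Gy and 0.36 ± 0.08 at 0.05 Gy and were not called.

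Myot, the Z-disc protein myotilin, had signals of 109, 96.7 and 94.1 at 0 Gy, 131, 115.5 and 126 at 0.05 Gy, 113, 109.9 and 116 at 0.5 Gy, 112, 116 and 105 at 1.4 Gy, 103, 108 and 102 at 11.2 Gy and 179, 178 and 176 at 32.4 Gy. It was not detected at 0 Gy, and at 32.4 Gy it was at least 1.56-fold higher (adjusted p in limma = 4.57e-11). A second Myot probe was detected on no array.

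Actn3, the alpha-actinin of fast fibres, rose at 0.05, 0.5, 11.2 and 32.4 Gy, with log2 ratios between 0.75 ± 0.06 and 1.35 ± 0.06, and Myoz1, a calsarcin of fast fibres, at the same doses with ratios between 0.64 ± 0.08 and 1.53 ± 0.08. Actn2, the alpha-actinin of all fibres, had ratios of 0.87 ± 0.07 at 0.05 Gy, 0.89 ± 0.07 at 0.5 Gy and 1.53 ± 0.07 at 32.4 Gy but 0.29 ± 0.07 at 11.2 Gy, which was not called. In the deposited values Actn2 was not called at 0.05 Gy nor Actn3 and Myoz1 at 0.5 Gy. Without replicate 2 of 0 Gy, the ratio of Myoz1 at 11.2 Gy was 0.52 and not called.

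Ldb3, a PDZ and LIM domain protein of the Z-disc, had signals of 97.1, 94.8 and 91.3 at 0 Gy, 125, 109 and 110.5 at 0.05 Gy, 110.4, 115 and 121 at 0.5 Gy, 104, 107 and 112 at 1.4 Gy, 108, 113 and 112 at 11.2 Gy and 123, 122.5 and 114 at 32.4 Gy. Every irradiated array was above the arrays at 0 Gy, yet Ldb3 was detected on all 3 arrays at 32.4 Gy alone, where it was at least 1.05-fold higher and not called. Myoz2, the calsarcin of slow fibres, was detected on 5 of 18 arrays and stood at least 1.18-fold higher at 32.4 Gy than at 0 Gy, also not called.

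Calcium handling held 4 of the 7 members that no group detected on all 3 arrays. Of its 8 measured members, 3 rose at 0.05, 0.5 and 11.2 Gy, 2 at 1.4 Gy and 4 at 32.4 Gy. Pvalb, the parvalbumin that buffers calcium in fast fibres, had signals of 396, 375 and 394 at 0 Gy, 3975, 3771 and 3803 at 0.05 Gy, 2513, 2473 and 2628 at 0.5 Gy, 1192, 1109 and 1145 at 1.4 Gy, 2965, 2827 and 2868 at 11.2 Gy and 5365, 6025 and 5565 at 32.4 Gy. No array of one group reached the range of another. Against 0 Gy the log2 ratio was 3.31 ± 0.06 at 0.05 Gy, 2.71 ± 0.06 at 0.5 Gy, then 1.56 ± 0.06 at 1.4 Gy, 2.89 ± 0.06 at 11.2 Gy and 3.86 ± 0.06 at 32.4 Gy, with an adjusted p in limma of 2.69e-18 at 1.4 Gy.

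Atp2a1, the fast-fibre calcium pump SERCA1, had signals of 392, 344 and 366 at 0 Gy, 3351, 3619 and 3116 at 0.05 Gy, 3217, 3374 and 3419 at 0.5 Gy, 1258, 1158 and 1112 at 1.4 Gy, 2262, 2473 and 2291 at 11.2 Gy and 4469.5, 4347 and 4173.5 at 32.4 Gy. The arrays at 0.05 and 0.5 Gy overlapped, with ratios to 0 Gy of 3.19 ± 0.07 and 3.18 ± 0.07. The ratio was 1.68 ± 0.07 at 1.4 Gy but 2.67 ± 0.07 at 11.2 Gy and 3.56 ± 0.07 at 32.4 Gy. Atp2a2, the pump of slow fibres and of non-muscle cells, which is no member, was detected on all arrays at a mean log2 signal of 10.16 and had ratios between -0.11 and 0.36, not called at any dose.

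Ryr1, the calcium release channel, was undetected at 0 Gy and stood at least 1.76-fold higher at 0.05 Gy, 1.71-fold at 0.5 Gy, 1.51-fold at 11.2 Gy and 1.90-fold at 32.4 Gy. Without replicate 2 of 11.2 Gy its fitted log2 ratio there was 0.58 and not called. Its 3 other probes were also undetected at 0 Gy. One was at least 1.68-fold higher at 0.05 Gy, 1.42-fold at 0.5 Gy and 1.57-fold at 32.4 Gy, a further one at least 1.48-fold at 0.05 Gy and 1.53-fold at 32.4 Gy, the third was detected on no array, and none of the 3 was called at 11.2 Gy. Sln, the sarcolipin that slows the calcium pump, had signals of 92.0, 88.0 and 91.3 at 0 Gy, 98.4, 120.1 and 108 at 0.05 Gy, 115, 110.2 and 106.5 at 0.5 Gy, 102, 107 and 109.5 at 1.4 Gy, 97.5, 105 and 96.9 at 11.2 Gy and 170.0, 178 and 163 at 32.4 Gy. It was detected on all 3 arrays at 32.4 Gy alone and was at least 1.49-fold higher there (adjusted p in limma = 1.17e-11).

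Casq1 and Casq2, which bind calcium inside the reticulum of fast and of slow and cardiac fibres, and Cacng1, a subunit of the voltage sensor, were detected on 0 of 18 arrays, and Jph1, which joins the reticulum to the cell membrane, on 1. Casq2 had signals of 97.8, 100.1 and 102.5 at 0 Gy, 91.2, 98.7 and 90.4 at 0.05 Gy, 99.1, 105 and 96.6 at 0.5 Gy, 93.5, 101 and 94.7 at 1.4 Gy, 91.6, 105 and 86.4 at 11.2 Gy and 93.4, 90.3 and 95.6 at 32.4 Gy. These values show the level of a probe that is not above background, and its group means followed those of the median member least of all, followed by Apobec2 and Myom2.

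Of the 8 energy genes, 7 rose at 0.05, 0.5, 11.2 and 32.4 Gy and 3 at 1.4 Gy. Mb, the oxygen store myoglobin, had signals of 291, 293 and 247.5 at 0 Gy, 1156.5, 1142 and 1165 at 0.05 Gy, 699, 718 and 689 at 0.5 Gy, 279, 284 and 311 at 1.4 Gy, 574, 613 and 599.6 at 11.2 Gy and 3152, 2902 and 3250.2 at 32.4 Gy. The arrays at 1.4 Gy overlapped those at 0 Gy, and those at 32.4 Gy were more than 2-fold above every other array. Relative to 0 Gy its log2 ratio was 2.06 ± 0.07 at 0.05 Gy, 1.34 ± 0.07 at 0.5 Gy, then 0.08 ± 0.07 at 1.4 Gy, 1.11 ± 0.07 at 11.2 Gy and 3.49 ± 0.07 at 32.4 Gy. A second Mb probe, detected on all arrays, gave 1.17 ± 0.07 at 0.05 Gy and 2.73 ± 0.07 at 32.4 Gy, and 0.53 ± 0.07 at 0.5 Gy and 0.52 ± 0.07 at 11.2 Gy, where it was not called.

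Cox6a2, the muscle form of a subunit of cytochrome c oxidase, had signals of 168, 158 and 164 at 0 Gy, 1160.3, 1188 and 1150.3 at 0.05 Gy, 696, 644 and 657 at 0.5 Gy, 329.6, 354 and 335 at 1.4 Gy, 586, 574 and 544 at 11.2 Gy and 1822, 1771 and 1663 at 32.4 Gy. All 6 groups were apart from each other. Its log2 ratio to 0 Gy was 2.84 ± 0.06 at 0.05 Gy but 1.06 ± 0.06 at 1.4 Gy and 3.42 ± 0.06 at 32.4 Gy, so that it also rose at 1.4 Gy (adjusted p in limma = 2.63e-14).

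Ckmt2, the mitochondrial creatine kinase of muscle, had ratios of 1.52 ± 0.08 at 0.05 Gy, 0.41 ± 0.08 at 1.4 Gy and 3.05 ± 0.08 at 32.4 Gy, where its second probe gave 3.15 ± 0.07 at 32.4 Gy. Ckm, the creatine kinase of the cytosol, had ratios of 2.22 ± 0.09 at 0.05 Gy and 2.49 ± 0.09 at 32.4 Gy. The muscle enolase Eno3 and the muscle phosphoglycerate mutase Pgam2, both of glycolysis, had ratios of 2.43 ± 0.06 and 2.84 ± 0.06 at 32.4 Gy. Ampd1, the AMP deaminase of fast fibres, was undetected at 0 Gy and at 0.05 Gy stood at least 2.56-fold higher, with at least 2.21-fold at 32.4 Gy. A second Ampd1 probe, likewise undetected at 0 Gy, gave bounds of 1.58-fold at 0.05 Gy and 1.37-fold at 32.4 Gy and was not called at 11.2 Gy. Pygm, the glycogen phosphorylase of muscle, was detected on 5 arrays and stood at least 1.09-fold higher at 32.4 Gy than without irradiation, which was not called.

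The ubiquitin ligases that rise when muscle wastes, Fbxo32 (atrogin-1) and Trim63 (MuRF1), were called at no dose. Fbxo32 had signals of 122, 129.6 and 113 at 0 Gy, 148, 145 and 139 at 0.05 Gy, 159.9, 170.4 and 151 at 0.5 Gy, 132, 153 and 121 at 1.4 Gy, 134, 141 and 125 at 11.2 Gy and 139, 129.7 and 133 at 32.4 Gy. Its largest log2 ratio was 0.40 ± 0.07 at 0.5 Gy (95% interval 0.25 to 0.56), and at 32.4 Gy it was 0.14 ± 0.07 (-0.01 to 0.30). Trim63 had signals of 102, 83.7 and 100 at 0 Gy, 107, 104 and 121 at 0.05 Gy, 99.9, 109.7 and 103 at 0.5 Gy, 97.2, 101 and 101 at 1.4 Gy, 101, 97.0 and 99.9 at 11.2 Gy and 111, 99.6 and 98.2 at 32.4 Gy. It was detected on 2 of 18 arrays, so these values give its background and not its level.

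Rpl3l, a muscle form of a ribosomal protein, had signals of 129, 125 and 128 at 0 Gy, 493, 416 and 478 at 0.05 Gy, 362, 407 and 372 at 0.5 Gy, 199, 200.5 and 198 at 1.4 Gy, 318, 309 and 309.5 at 11.2 Gy and 735, 748 and 729 at 32.4 Gy. All 6 groups were apart, and its log2 ratio to 0 Gy was 0.64 ± 0.06 at 1.4 Gy and 2.53 ± 0.06 at 32.4 Gy. Apobec2, a cytidine deaminase family protein of muscle, was detected on no array, with signals between 82.8 and 101.6.

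**Figure D3:**
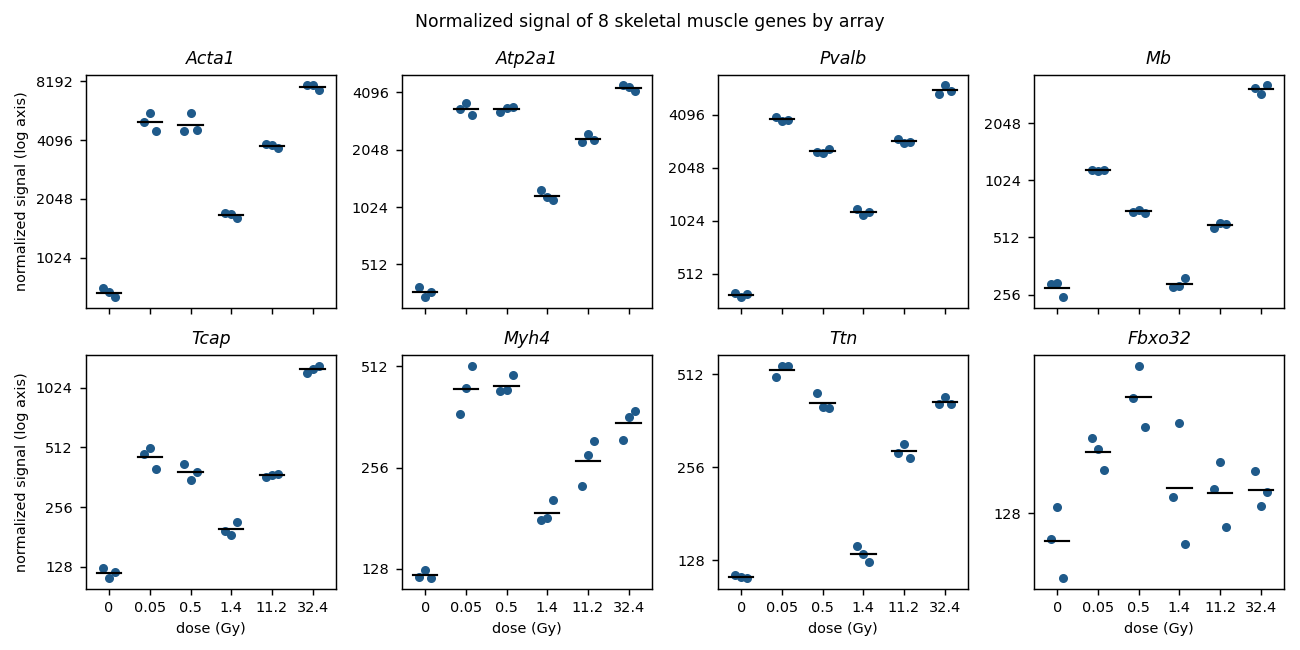
Normalized signal of 8 muscle genes on each array (points, log axis) by dose, with the mean of the log2 values as a line, n = 3 arrays of 1 pool per dose. Acta1, Atp2a1, Pvalb, Mb and Tcap are highest at 32.4 Gy and lowest among irradiated groups at 1.4 Gy, Myh4 and Ttn are highest at 0.5 and 0.05 Gy, and Fbxo32 spans a narrow range of 112.9 to 170.4.

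Between doses the called members all moved in 1 direction in each comparison, which was not that of the dose throughout. At 1.4 Gy 23 members fell relative to 0.05 Gy (3.56% of all probes fell and 3.13% rose) and 20 relative to 0.5 Gy (4.63% fell and 5.04% rose). At 11.2 Gy 15 rose relative to 1.4 Gy (2.96% of all probes rose and 2.32% fell), 8 fell relative to 0.05 Gy (0.475% fell and 0.436% rose), and Actn2 and Myh4, 2 members, fell relative to 0.5 Gy (1.11% fell and 1.51% rose). Relative to 0.05 Gy, 4 members fell at 0.5 Gy, namely Ckm, Pvalb, Mb and Cox6a2 (0.568% of all probes fell and 0.483% rose). At 32.4 Gy 26 rose relative to 1.4 Gy (2.1% of all probes rose and 0.961% fell), 20 relative to 11.2 Gy (0.486% and 0.245%), 18 relative to 0.5 Gy (2.34% and 1.96%) and 10 relative to 0.05 Gy (0.802% and 0.751%). The count at 11.2 against 0.5 Gy was 1 without replicate 2 of 0.5 Gy.

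By group means, 32.4 Gy was the highest group in 29 of 37 members, 0 Gy the lowest in 32, and 1.4 Gy the lowest irradiated group in 29. The 37 include the 7 members that no group detected throughout. Among the 16 members detected on 18 arrays these counts were 15, 16 and 16. The share of all probes with such orders is not given. The full order 32.4, 0.05, 0.5, 11.2, 1.4 and 0 Gy, from high to low, was found in 17 members. In the deposited values it was found in 2, since 11.2 Gy was above 0.5 Gy in 32 of 37 members there and in 6 after joint normalization, and with 75th percentile scaling in 14. In the deposited values 32.4 Gy was the highest group in 34 members, 0 Gy the lowest in 28 and 1.4 Gy the lowest irradiated group in 23. Neighbours in that order often differed by less than the called fold. Between 0.5 and 0.05 Gy 4 of 37 members were called (0.568% of all probes fell and 0.483% rose), and between 11.2 and 0.5 Gy 2 (1.11% fell and 1.51% rose). With no fold threshold 10 and 13 members were called, and 1527 and 2765 of all 25697 probes. Among the 30 members detected throughout a group, Myh4 and Fbxo32 were highest at 0.5 Gy and Ttn and Ampd1 at 0.05 Gy.

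The groups with the highest and the lowest dose above 0 both held high muscle signals, and they differed for some members. The 10 members that rose at 32.4 Gy relative to 0.05 Gy were Ckmt2, Tcap, Mb, Tpm2, Pgam2, Rpl3l, Actn2, Sln, Acta1 and Cox6a2. Ckmt2 differed by 1.54 ± 0.08 on the log2 scale, Tcap by 1.47 ± 0.08, Mb by 1.42 ± 0.07 and Tpm2 by 1.00 ± 0.07, all with SE. Second probes gave 1.64 ± 0.07 for Ckmt2 and 1.56 ± 0.07 for Mb, and 0.18 ± 0.06 for the detected second probe of Tpm2. The lowest ratios, none of them called, were those of Ttn with -0.34 ± 0.06 (95% interval -0.47 to -0.21), Myh4 with -0.33 ± 0.10 (-0.54 to -0.12) and Ampd1 with -0.21 ± 0.07 (-0.36 to -0.06), but in the deposited values the signs turned, with 0.27 for Ttn, 0.27 for Myh4 and 0.34 for Ampd1. The heavy chain Myh1 had 0.51 ± 0.07, Atp2a1 had 0.37 ± 0.07 and Pvalb had 0.55 ± 0.06, and none of these reached the fold that was called. Acta1 at 0.60 ± 0.08, Cox6a2 at 0.59 ± 0.06 and Sln at 0.65 ± 0.07 lay close to that fold and lost the call when single arrays were left out. The ratio of Acta1 was 0.52 without replicate 3 of 0.05 Gy and 0.58 without replicate 1 or 2 of 32.4 Gy, that of Sln was 0.58 without replicate 1 of 0.05 Gy, and that of Cox6a2 was 0.56 to 0.58 without replicate 1 or 3 of 0.05 Gy or replicate 1 or 2 of 32.4 Gy. In the deposited normalized values, which scale 0.05 and 0.5 Gy apart from the other groups, the members called were 23 at 32.4 against 0.05 Gy, 0 at 11.2 against 0.05 Gy, 6 at 1.4 against 0.5 Gy and 4, all higher, at 11.2 against 0.5 Gy.

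**Figure D4:**
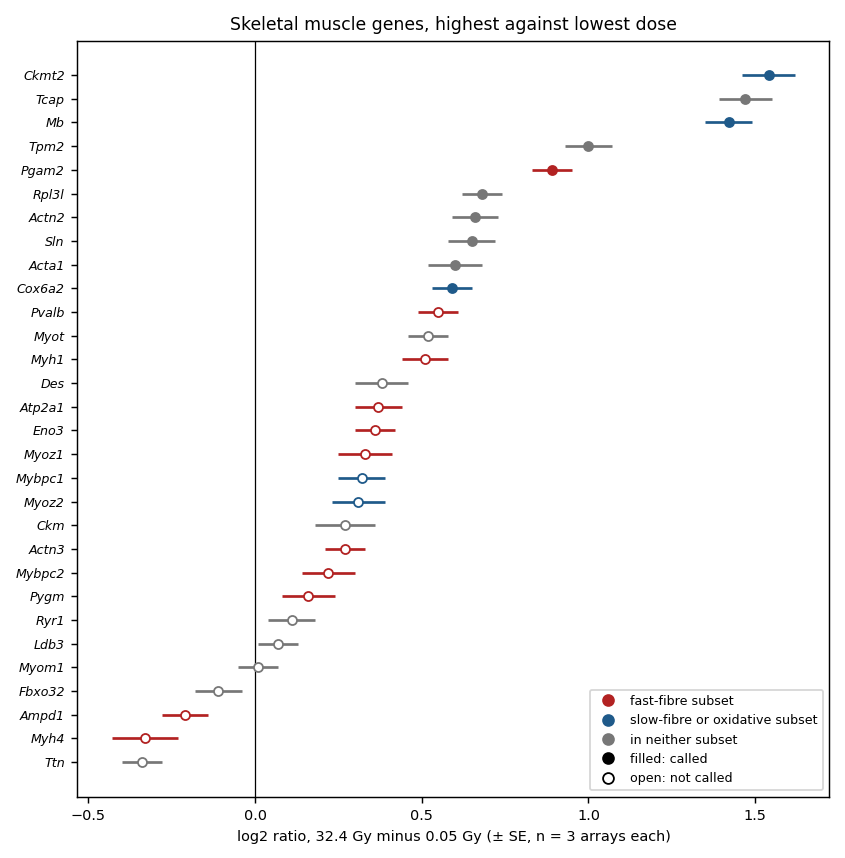
Log2 ratio of 32.4 Gy to 0.05 Gy with SE (n = 3 arrays each) for the 30 muscle genes detected throughout at least 1 group, filled where called and coloured by fibre subset. Ckmt2, Tcap and Mb lie near 1.5, and Ampd1, Myh4 and Ttn lie left of 0, where in the deposited values they have ratios of 0.34, 0.27 and 0.27.

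Both fibre-type subsets had a median above 0 at every dose. The median log2 ratio of 12 fast-fibre members (Actn3, Ampd1, Atp2a1, Casq1, Eno3, Mybpc2, Myh1, Myh4, Myoz1, Pgam2, Pvalb and Pygm) was 1.47 at 0.05 Gy, 1.32 at 0.5 Gy, then 0.45 at 1.4 Gy, 1.04 at 11.2 Gy and 1.59 at 32.4 Gy. That of 6 slow-fibre or oxidative members (Casq2, Ckmt2, Cox6a2, Mb, Mybpc1 and Myoz2) was 1.13, 1.04, 0.12, 0.78 and 2.06 at the same doses. At 32.4 Gy relative to 0.05 Gy, 1 of the 12 fast members rose (Pgam2, median 0.30) and 3 of the 6 slow or oxidative members (Ckmt2, Cox6a2 and Mb, median 0.45). Of all probes 0.802% rose in that comparison. These counts depend on the scaling. In the deposited values 23 of the 37 members were called there, all higher, and 3378 of 25697 probes were higher. The fast members Actn3, Atp2a1, Eno3, Mybpc2, Myh1, Myoz1, Pgam2 and Pvalb were at least 1.5-fold higher in those values. So were the slow or oxidative members Ckmt2, Cox6a2, Mb, Mybpc1 and Myoz2. The difference between the subsets was not tested, and the genes behind each median share the same arrays.

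Of 22 further sarcomere genes measured, 7 rose at 0.05 Gy, 8 at 0.5 Gy, 4 at 1.4 Gy, then 5 at 11.2 Gy and 7 at 32.4 Gy, and none fell. Of all probes 2.62%, 3.69%, 1.23%, 1.84% and 1.31% rose at these doses. The fast myosin light chain Mylpf had log2 ratios to 0 Gy of 3.60 at 0.05 Gy, 2.83 at 0.5 Gy, then 1.89 at 1.4 Gy, 2.54 at 11.2 Gy and 4.24 at 32.4 Gy, each with an SE of 0.08. The fast troponin C gene Tnnc2 had 3.91, 3.28, 1.82, 2.76 and 4.16 at the same doses, each with an SE of 0.07. Myl1, a fast alkali light chain, had 1.39, 1.12, 0.46, 0.96 and 1.76. Of the slow forms, Myh7 (slow heavy chain), Tnni1 (slow troponin I) and Myl2 (slow regulatory light chain) were detected on 0 of 18 arrays. Tnnt1 (slow troponin T), detected on 16, had ratios between -0.13 and 0.07, and none of these genes was called. Tnnc1 (slow troponin C) was undetected at 0.05, 0.5, 11.2 and 32.4 Gy, and Myl3 (slow light chain) at 0, 0.05, 0.5 and 11.2 Gy. The slow member Mybpc1 did rise, at 0.05, 0.5 and 32.4 Gy. At 32.4 Gy relative to 0.05 Gy, where 0.802% of all probes rose, 4 of the 22 rose. They were Csrp3 by 1.15 on the log2 scale, Nrap by 0.89, Mylpf by 0.64 and the fast troponin T gene Tnnt3 by 0.59.

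Of 17 further genes of excitation and calcium handling, 1, 2, 0, 1 and 2 rose at the doses from 0.05 to 32.4 Gy. Of all probes 2.62%, 3.69%, 1.23%, 1.84% and 1.31% rose at these doses, and a difference from these shares was not tested. The genes that rose included Hrc, a calcium-binding protein of the reticulum, undetected without irradiation, with a signal at least 3.15-fold higher at 32.4 Gy. The acetylcholine receptor subunits Chrna1, Chrnd and Chrne, Clcn1, Musk and Trdn were detected on no array. Of 8 genes of muscle precursor cells and muscle gene control, none was called at any dose (limma, adjusted), and at an unadjusted p under 0.05 2, 1, 0, 1 and 3 of 8 differed in the order of the doses. Myod1, Myog, Myf5, Pax7 and Mstn were detected on 0 arrays. None of 5 genes of the muscle membrane complex and none of 6 proteolysis genes was called, with 4, 2, 1, 3 and 0 of 5 and 3, 1, 1, 3 and 3 of 6 at an unadjusted p under 0.05. The share of all probes at that unadjusted level is not given, so these counts have no background beside them.

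Of 15 further energy genes used by muscle, none rose against 0 Gy, while 5 fell at 0.05 Gy, 7 at 0.5 Gy, 0 at 1.4 Gy, then 1 at 11.2 Gy and 2 at 32.4 Gy. Of all probes 2.18%, 3.9%, 1.2%, 0.957% and 0.786% fell at these doses. Cox7a1 and Cox8b, which are subunits of cytochrome c oxidase like Cox6a2 but are also made in brown fat, had mean log2 signals of 12.74 and 13.54 and log2 ratios of -1.96 and -1.39 at 0.5 Gy. Cidea and Slc27a2, 2 of 7 measured brown fat genes, had ratios of -1.71 and -2.06 at that dose. The summed signal of all 7 was 10158 to 11805 at 0.5 Gy and 27545 to 28443 at 0 Gy. A link between these genes and the 2 subunits was not tested. At 32.4 Gy Pfkm, the muscle phosphofructokinase, had a ratio of 0.46 and Adssl1 of 0.42, which were not called. At 32.4 Gy relative to 0.05 Gy, Cox7a1 rose by 0.87 on the log2 scale and Adssl1 by 0.61.

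Markers of other tissues moved with the doses as well. The summed signal of 7 brown fat genes was 27545 to 28443 at 0 Gy, 20071 to 21189 at 0.05 Gy, 10158 to 11805 at 0.5 Gy, 31522 to 34803 at 1.4 Gy, 23659 to 26750 at 11.2 Gy and 27503 to 30669 at 32.4 Gy. That of 8 salivary secretory genes was 82692 to 85249 at 0 Gy, 122575 to 123821 at 0.05 Gy, 118432 to 131272 at 0.5 Gy, 49597 to 50390 at 1.4 Gy, 121674 to 126179 at 11.2 Gy and 103106 to 108289 at 32.4 Gy. Within the salivary list, 4 of 8 genes were higher and 4 lower at 0.05 Gy than at 0 Gy, where Smgc, detected on no array at 0 Gy, was at least 279-fold higher and Dcpp1, detected on no array at 0.05 Gy, at least 253-fold lower. The summed signal of 4 erythrocyte genes was 30098 to 34248 at 0 Gy, 9127 to 10087 at 0.05 Gy, 5579 to 5946 at 0.5 Gy, 32550 to 34095 at 1.4 Gy, 24619 to 25613 at 11.2 Gy and 31924 to 33425 at 32.4 Gy. The 6 white fat genes summed to 18515 to 24165 at 0 Gy, 25338 to 29482 at 0.05 Gy, 20936 to 26796 at 0.5 Gy, 40074 to 40948 at 1.4 Gy, 24379 to 25228 at 11.2 Gy and 23351 to 25870 at 32.4 Gy, and Adipoq, Lep and Lpl rose at 1.4 Gy. Of 5 endothelial genes, Tek fell at 0.05 Gy and Cdh5, Emcn, Pecam1 and Tek at 0.5 Gy, and no member of that list was called at the other doses. The part of these tissues in the muscle results was not tested. Muscle and salivary sums were both lowest among irradiated groups at 1.4 Gy, while brown fat was highest there.

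**Figure D5:**
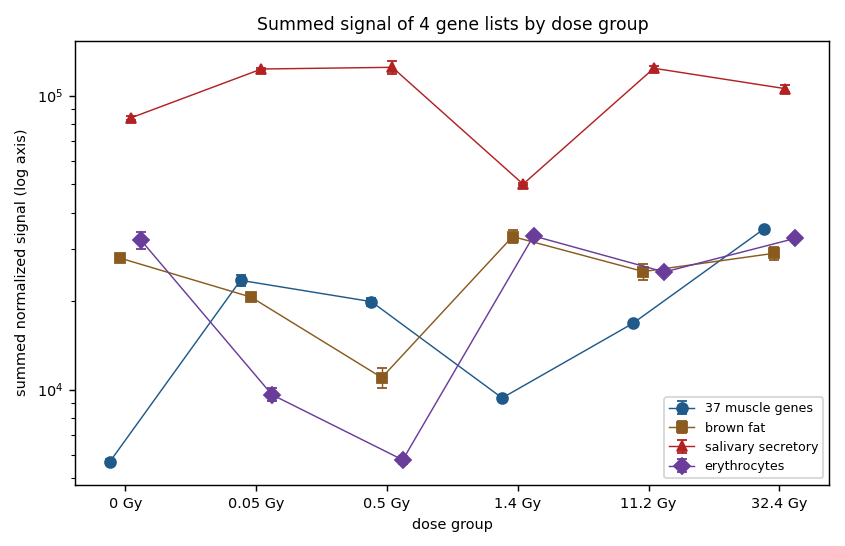
Summed normalized signal (log axis) of the 37 muscle genes and of the brown fat, salivary and erythrocyte lists by dose group, with markers at the middle and bars at the range of 3 arrays. Muscle genes are lowest at 0 Gy and next lowest at 1.4 Gy, where the salivary list is lowest and the brown fat list highest.

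Other muscle types were set against the same arrays. Of 7 measured cardiac genes none was called at any dose (limma, adjusted), 2, 2, 1, 1 and 0 of 7 differed at an unadjusted p under 0.05 in the order of the doses, and Myh6, Nppa, Tnni3, Myl7 and Mybpc3 were detected on 0 arrays. The share of all probes at that unadjusted level is not given. Of 7 smooth muscle genes, Acta2, the smooth muscle actin, rose at 0.05, 0.5, 11.2 and 32.4 Gy by log2 ratios of 0.73, 1.08, 0.91 and 0.67, with -0.06 at 1.4 Gy, and Myh11, the smooth muscle heavy chain, rose at 11.2 Gy by 0.62. The smooth muscle genes Tagln and Cnn1 were detected on 6 and 0 arrays.

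Array signals hold a background that shrinks the ratios of dim genes. After a correction that models it (neqc), the median log2 ratio of the 37 members was 2.11 at 0.05 Gy, 1.73 at 0.5 Gy, then 0.49 at 1.4 Gy, 1.47 at 11.2 Gy and 2.60 at 32.4 Gy. On that scale the ratio at 32.4 Gy was 4.88 for Tcap, 4.56 for Ckmt2 and 3.65 for Acta1, so the ratios of members that differ in signal are not on one scale.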

How the data were processed

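The authors extracted RNA from thyroids pooled by group, hybridised each pool in triplicate to Illumina MouseRef-8 arrays and read them with Illumina BeadScan. The deposited non-normalized signal intensities and detection p-values of 18 arrays were used here. The normalized intensities deposited by the authors had been quantile-normalized in 2 separate sets, 0.05 and 0.5 Gy (75th percentile 176.2) and the other groups (241.9), with the controls in one of them, and served as an alternative. Here the 18 arrays were quantile-normalized together, log2-transformed and fitted with limma 3.58.1 in R 4.3.3 over 6 groups. P-values were Benjamini-Hochberg adjusted over all 25697 probes, and calls needed an adjusted p under 0.01 and a 1.5-fold ratio, as in the study's methods. Of the probes, 23978 had 1 gene symbol and 1719 had none. Where a probe was not detected on any array of a group, a bound is given: the mean over all arrays of the brighter group against, per array of the other, the higher of the lowest detected signal and the probe's own. The number of arrays limits the precision. The script was tested on simulated data. Members, lists and the rule for naming genes were chosen with earlier results of these data known: the 2 members of highest mean signal per role, the 2 highest and 2 lowest ratios at each dose, and the 3 whose group means followed the median member least are given array by array. Promoters came from RefSeq tables (GRCm38.p6). Alternatives were the deposited values, neqc, scaling to the 75th percentile, detected probes only, an added 50, no fold threshold, the array number as a block, other probes and leaving out each array.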

Additional observations from a re-analysis of the deposited data

Results flagged for a closer look

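Between the arrays at 32.4 and 0.05 Gy, 4 members differed by at least 2-fold (limma, Benjamini-Hochberg adjusted over all probes). The difference between the 2 ratios to 0 Gy is the same value, since the shared 0 Gy group cancels. Each group was 1 RNA pool on 3 arrays, so the test covers the spread between arrays alone. A difference between these doses cannot be told apart from one between the pools. The authors also normalized 0.05 and 32.4 Gy in different sets, and any difference between those sets cannot be told apart from one between these doses. Ckmt2 differed by 1.54 on the log2 scale, Tcap by 1.47, Mb by 1.42 and Tpm2 by 1.00. A second Tpm2 probe, detected on all 18 arrays, gave 0.18 ± 0.06 (SE) and was not called, whereas second probes of Ckmt2 and Mb gave 1.64 and 1.56. With 3 arrays a group, single arrays were not tested for standing apart.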

How the results depend on the processing

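The 113 called log2 ratios of members (5 doses against 0 Gy, and 32.4 against 0.05 Gy) kept their direction under every alternative that used the same probe. All stayed called with neqc, 75th percentile scaling, detected probes only and no fold threshold, 108 with the deposited values and 99 with 50 added. The deposited values lost Actn2 and Mybpc1 at 0.05 Gy and Actn3, Mybpc1 and Myoz1 at 0.5 Gy. With 50 added, Mybpc1 was lost at 0.05 Gy, Actn3, Mybpc1 and Myoz1 at 0.5 Gy, Ckm, Mybpc2, Myh4, Rpl3l and Tcap at 1.4 Gy, Myoz1 and Ryr1 at 11.2 Gy, and Actn2, Cox6a2 and Sln at 32.4 against 0.05 Gy. Leaving out 1 array at a time, 2023 of 2034 fits kept the call, and the 11 losses were of Myh4, Myoz1, Ryr1, Acta1, Cox6a2 and Sln. With the array number as a replicate block none of the 113 lost the call, and the members called were 23, 23, 11, 20 and 26 at the 5 doses. Deviations from the group means correlated at -0.04 to 0.29 (median 0.09) for same-numbered arrays. For arrays of different numbers they correlated at -0.31 to 0.17 (median -0.05). With 17 of 18 arrays correlating best with their own number, same-numbered arrays shared a weak deviation, whose source was not tested. The slide as a block was not run because the headers name no slide. Further probes gave ratios with the other sign, or 0, for Mybpc1 (-0.01 at 0.05 Gy, 0 at 0.5 Gy, -0.05 at 32.4 Gy), Myot (-0.01 at 32.4 Gy), Ryr1 (-0.03 at 0.05 Gy, -0.01 at 11.2 Gy, -0.06 at 32.4 Gy) and Tpm2 (-0.18 at 1.4 Gy), all from undetected probes except that of Tpm2. For role groups, 37 of 42 counts stayed within 1.5 times with neqc, 38 with the deposited values, 36 with 50 added and 34 with no fold threshold.

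Counts of called members that moved by over 1.5 times, with the first dose against the second, were as follows. With no fold threshold 10 members were called at 0.5 against 0.05 Gy, 18 at 11.2 against 0.05 Gy, 13 at 11.2 against 0.5 Gy and 21 at 32.4 against 0.05 Gy. With the deposited values 6 were called at 1.4 against 0.5 Gy, 0 at 11.2 against 0.05 Gy, 4 at 11.2 against 0.5 Gy (all 4 higher, and neither of the 2 that fell in the joint normalization) and 23 at 32.4 against 0.05 Gy. At 11.2 against 0.5 Gy, 4 were called with 75th percentile scaling, 4 with neqc, 1 with 50 added, and 1 to 2 when single arrays were left out. At 1.4 against 0 Gy 6 were called with 50 added.

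Over all probes the deposited values moved the median log2 ratio by -0.19 at 0.05 and 0.5 Gy against 0 Gy and by 0.19 to 0.20 in the other comparisons across their 2 sets, and the scaling to the 75th percentile by up to 0.22, at 11.2 against 0.5 Gy. The deposited values called 4300 probes at 0.05 Gy (268 higher, 4032 lower, against 674 and 561 in the joint normalization) and 4313 at 0.5 Gy (383 higher, 3930 lower, against 948 and 1001). Between doses they called 4889 at 1.4 against 0.05 Gy, 4972 at 1.4 against 0.5 Gy, 3145 at 11.2 against 0.05 Gy, 3274 at 11.2 against 0.5 Gy, 3403 at 32.4 against 0.05 Gy and 3561 at 32.4 against 0.5 Gy, and 6929 in the F test. Against 0 Gy, in the order of the doses, neqc called 2546, 3592, 1345, 1588 and 1150 probes, and no fold threshold 4101, 5061, 2539, 3016 and 2103. Between doses, in the order 0.5/0.05, 1.4/0.05, 1.4/0.5, 11.2/0.05, 11.2/0.5, 11.2/1.4, 32.4/0.05, 32.4/0.5, 32.4/1.4 and 32.4/11.2 Gy, neqc called 627, 3384, 4448, 571, 1412, 2776, 1082, 2339, 1632 and 423, and no fold threshold 1527, 4991, 5928, 1230, 2765, 4356, 2262, 3830, 2956 and 1001. In the F test they called 5113 and 6493. The shift of the deposited sets is part of their construction, and the cause of the other moves was not tested. Signals near background limit the 7 members that no group detected throughout.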

Other observations

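Probes of one gene did not always move together. The 12 members with more than 1 probe had 18 further probes, none of which was called in the opposite direction to the probe in use at any dose. Of these 18 probes, 7 rose at 0.05 Gy, 5 at 0.5 Gy, then 0 at 1.4 Gy, 2 at 11.2 Gy and 7 at 32.4 Gy. Tpm2 stood out, since both of 2 probes detected on all 18 arrays can be compared: at 32.4 Gy they gave log2 ratios to 0 Gy of 3.26 ± 0.07 and 0.56 ± 0.06 (SE). Actn3 had 3 probes, detected on 18, 15 and 5 arrays: at 32.4 Gy the first had a ratio of 1.35 ± 0.06, and the other two, undetected at 0 Gy, were at least 1.82-fold and 1.06-fold higher, the last of them not called.

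Some genes measured beside the members broke with their order of doses. Pdlim3, a Z-disc protein, had log2 ratios to 0 Gy of 1.15 at 0.05 Gy, 1.40 at 0.5 Gy, then -0.56 at 1.4 Gy, 0.57 at 11.2 Gy and 0.64 at 32.4 Gy. Tpm1, a tropomyosin of striated and smooth muscle, had 0.31, 0.94, -0.41, 0.23 and 0.07 at the same doses and rose at 0.5 Gy alone. These 2 genes were picked after their values were seen.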
